A study of Mus musculus with 36 samples.

Results

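Expression of the genes that act upstream of Sry was examined in bulk RNA-seq of mouse embryonic gonads with and without the miR-17~92 microRNA cluster. Sry, the Y-linked gene that starts testis development, is switched on for a short time in supporting cell precursors of the XY gonad, and its transcription is known to need 2 kinds of input. The first is a kinase cascade in which the adaptor GADD45G activates the kinase MAP3K4, which acts through MAP2K6 on the p38 kinase MAPK14. The second is a set of transcription factors of the early gonad: GATA4 and its cofactor ZFPM2 (FOG2), the nuclear receptor NR5A1 (SF-1), the zinc finger protein WT1 and the homeobox protein SIX4. In mice, loss of either kind of input is known to lower or delay Sry and can lead to ovaries in XY embryos. The 9 genes (Gadd45g, Map3k4, Map2k6, Mapk14, Gata4, Zfpm2, Nr5a1, Wt1 and Six4) were chosen by name, with earlier results of these data known, and are 9 of 21699 genes in the count tables.

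Both chromosomal sexes, each as control and as KO, were sampled at stages E11.5 and E12.5, with 3 libraries per group and 8 groups in all. KO gonads were homozygous for the deleted allele of the cluster (miR-17~92 del/del) and carried the transgene Tg(CAG-cre)1Nagy, in which Cre driven by the ubiquitous CAG promoter removed the floxed cluster, so the deletion was not limited to 1 gonadal cell type. Controls were labelled wild type, and nothing further on their alleles is given in the sources used here. At E11.5 the tissue was the complex of gonad and mesonephros, the embryonic kidney beside the gonad, and at E12.5 it was the gonad alone; the 2 stages also used different stranded library kits. Each library pooled 2 pairs of gonads, and the labels do not tie libraries to litters, so the tests measure the spread between these libraries.

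Total counts lay between 17150620 and 34077443 per library at E11.5 and between 11877379 and 44155275 at E12.5, and none of the 9 genes had fewer than 234 counts in any library. Levels are given as CPM, counts scaled to a common library size with TMM factors. Xist was at 1340.5 to 2988 CPM in XX libraries and at most at 4.72 CPM in XY libraries, and the Y-linked Ddx3y was at 100.3 to 209 CPM in XY libraries and at most at 0.369 CPM in XX libraries, so the sex labels held in all 24. The host transcript of the cluster, Mir17hg, was at 13.4 to 44.6 CPM in the 12 control libraries and at 66.7 to 154 CPM in the 12 KO libraries. These counts per gene separate the genotypes without overlap, but they do not show which part of the transcript was read and so do not check the deletion. The study made that check from read coverage of the locus in its bulk RNA-seq, and reports no reads over the cluster in KO gonads. In E11.5 libraries, replicate 2 of the XY controls stood apart, since leaving it out raised the number of genes called between XX and XY controls from 126 to 2495. At E12.5 the same held for replicate 2 of the XX KO gonads, without which 1828 genes in place of 22 were called when the KO gonads of both sexes were compared.

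The cluster encodes 6 microRNAs, and their mature sequences are shown because a microRNA finds its targets mainly through its seed, bases 2 to 8, printed here in capitals. The strands printed are the arms that seed families are usually named for, as given by RefSeq on GRCm38.p6, all from the plus strand of chromosome 14 between bases 115043684 and 115044496.
miR-17-5p: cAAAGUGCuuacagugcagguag
miR-20a-5p: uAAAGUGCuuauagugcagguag
miR-18a-5p: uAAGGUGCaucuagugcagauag
miR-19a-3p: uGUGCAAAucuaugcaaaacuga
miR-19b-3p: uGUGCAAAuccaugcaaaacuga
miR-92a-3p: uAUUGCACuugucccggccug
miR-17-5p and miR-20a-5p share a seed, as do miR-19a-3p and miR-19b-3p, which leaves 4 seed families. The DNA letters complementary to the seeds are GCACTTT for the miR-17 pair, then GCACCTT for miR-18a-5p, TTTGCAC for the miR-19 pair and GTGCAAT for miR-92a-3p, searched on the sense strand of the longest annotated 3′ UTR of each gene (GENCODE M21).

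Only Mapk14, Zfpm2 and Six4 of the 9 genes held such a match in that UTR, and none of the 9 held one for miR-18a-5p or miR-92a-3p. Among the 20996 protein-coding genes searched, 28.7% held a match to at least 1 family, and 11.7% held the letters of the miR-17 family. Zfpm2, with a UTR of 1016 bases, held 1 match for the miR-17 family that is followed by an A, the stronger 8-base form, and 1 for the miR-19 family. Of the 1000 UTRs nearest to it in length, 24.8% held a match to any family. Mapk14, with a UTR of 2068 bases, held 1 match of each of these families, and its miR-19 match also has the 8-base form. Of the UTRs nearest to it in length, 42.7% held a match to any family. Six4, whose UTR of 5170 bases is the longest of the 9, held 3 matches, and 73.2% of UTRs of like length held one. The sites are shown with the match in capitals, 1 each for Zfpm2 and Mapk14 and the Six4 stretch in which a miR-19 and a miR-17 match share letters.
Zfpm2, miR-17 family, bases 533 to 539 of the UTR: aggctccaattGCACTTTatattttagca
Mapk14, miR-19 family, bases 1827 to 1833 of the UTR: ttgaagacatcTTTGCACatgtgaccatg
Six4, miR-17 family, bases 3695 to 3701 of the UTR: tagtttgttttGCACTTTctctcatccta
Gadd45g, Gata4, Nr5a1 and Wt1 had no match in UTRs of 489, 1453, 1361 and 1272 bases. Map3k4 and Map2k6 also had none, in UTRs of 479 and 918 bases. A match is a run of letters and not a measured site, and the absence of one covers only this window.

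The loci are given on GRCm38. Gadd45g is a short gene on the plus strand of chromosome 13 (51846678 to 51848468), Map3k4 lies on the minus strand of chromosome 17 (12227621 to 12318796), Map2k6 on the plus strand of chromosome 11 (110399122 to 110525522) and Mapk14 on the plus strand of chromosome 17 (28691329 to 28748406). Gata4 lies on the minus strand of chromosome 14 (63198922 to 63271692), Zfpm2 on the plus strand of chromosome 15 (40655035 to 41104592), Nr5a1 on the minus strand of chromosome 2 (38692656 to 38714542), Wt1 on the plus strand of the same chromosome (105126529 to 105173616) and Six4 on the minus strand of chromosome 12 (73099609 to 73113456). Some of these genes overlap other annotated genes, among them the antisense transcript Nr5a1os, but in GENCODE M21 no exon of the 9 genes shares a base with an exon of another gene.

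To compare genes with each other, CPM were divided by the length of the merged exons in kilobases. In XY controls at E11.5, Wt1 was the most abundant of the 9 per kilobase, at 85.4 ± 2.79 CPM per kb (SD, n = 3), followed by Gadd45g at 49.8 ± 16.4, Gata4 at 43.9 ± 5.93 and Nr5a1 at 29.4 ± 3.96. Mapk14 at 27.7 ± 1.98 CPM per kb lay within the spread of Nr5a1, and Gadd45g and Gata4 also lay within each other's spread. Map3k4 (10.99 ± 1.41) and Map2k6 (10.5 ± 0.664 CPM per kb) could not be separated, and Zfpm2 (6.19 ± 0.934) and Six4 (1.73 ± 0.174 CPM per kb) were lowest. In XY controls at E12.5 the order began with Gata4 at 115 ± 18.1, Nr5a1 at 84.4 ± 12.53 and Wt1 at 49.4 ± 5.25 CPM per kb. Six4 was again the lowest, at 3.77 ± 0.283 CPM per kb. The 2 orders come from different tissue and kits, which cannot be told apart from time.

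The deletion was compared with controls of the same sex, with edgeR's quasi-likelihood test and a Benjamini-Hochberg adjusted p (FDR) over all genes tested, and genes under 0.05 were called. All 9 genes passed the filter on low counts at both stages. At E11.5, when Sry is expressed, 3 of the 9 were lower in XY KO than in XY control gonads: Nr5a1, Gadd45g and Gata4. Over all genes, 12.7% were called in this comparison in either direction and 6.81% were called lower. The other 6 did not pass the test, and none was called higher. In XX KO against XX control gonads only Gadd45g was called, lower, where the background was 3.27% of genes in either direction and 1.46% lower. These backgrounds depended on single libraries. The 1804 genes called in XY KO became 2891 without replicate 2 of the XY controls, 975 without their replicate 1, and 814 and 932 without replicates 1 and 2 of XY KO. The 465 genes called in XX KO became 173, 142 and 181 without replicates 1, 2 and 3 of the XX controls, and 289 and 197 without replicates 1 and 3 of XX KO.

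**Figure D1:**
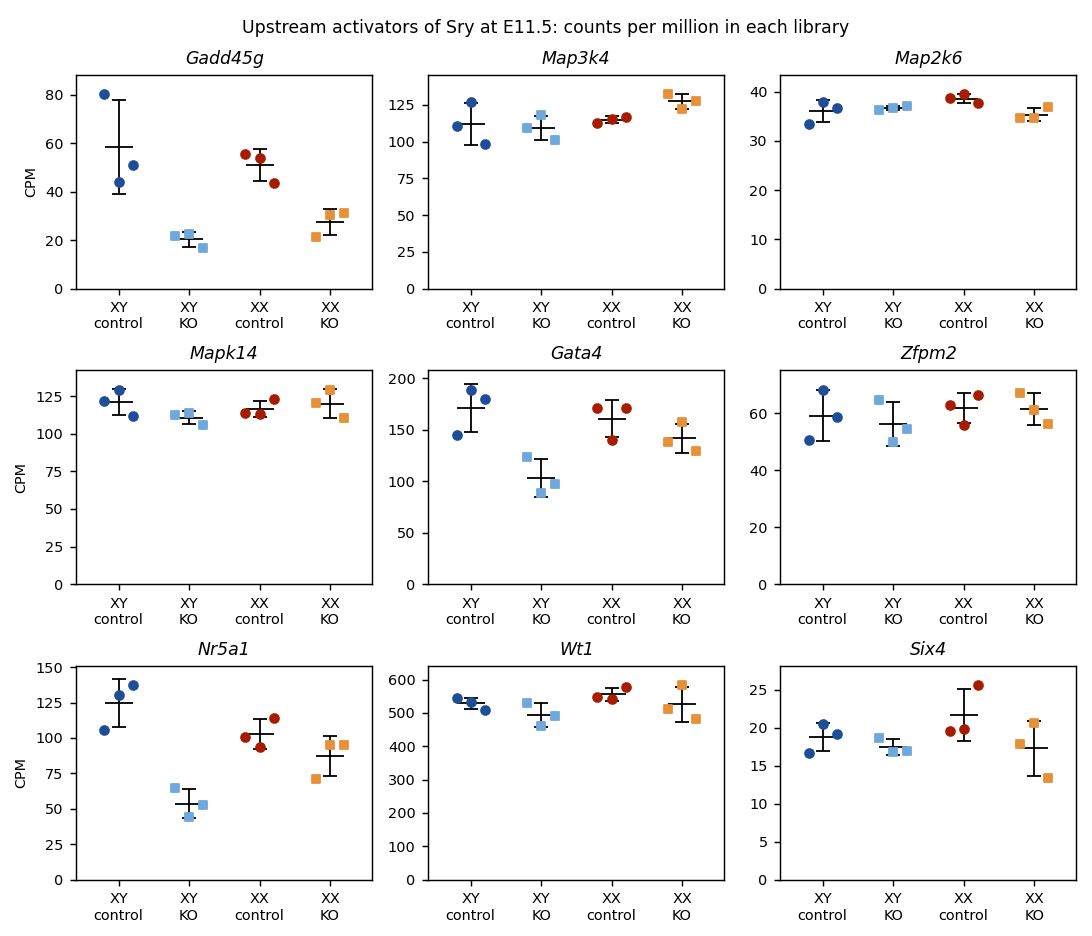
CPM of the 9 genes in each of the 12 libraries at E11.5, by genotype; points are libraries, and bars give the mean and SD of 3. XY KO libraries of Nr5a1, Gata4 and Gadd45g lie below all XY control libraries, while Map3k4, Map2k6, Zfpm2 and Six4 overlap between these groups.

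Gadd45g, the entry point of the p38 branch, was at 80.3, 44.1 and 50.9 CPM in the 3 XY control libraries and at 21.6, 22.3 and 16.9 CPM in XY KO. XX controls were at 55.4, 54.1 and 43.4 CPM, and XX KO at 21.3, 30.3 and 31.0 CPM. All 6 KO libraries were below all 6 control libraries, whatever the sex, and replicate 1 of the XY controls was high within its group. Its level fell by 1.52 on the log2 scale in XY KO (SE 0.21, 95% interval -1.99 to -1.06, FDR = 0.000982), to 0.348 of the control level. In XX KO it fell by 0.89 (SE 0.21, FDR = 0.0374), to 27.6 ± 5.40 from 51.0 ± 6.55 CPM (SD, n = 3). The call in XX gonads was not firm, since it was lost without the filter on low counts (FDR = 0.0528) and when 8 of the 12 libraries were left out in turn. The 2 effects were not shown to differ, with an interaction of -0.63 (SE 0.30, FDR = 0.393), and the interval of that difference ran from -1.28 to 0.01.

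Downstream of Gadd45g, the kinases were nearly level. Map3k4, the kinase that GADD45G binds, was at 111, 127 and 98.0 CPM in XY controls and at 109, 118 and 101 CPM in XY KO, a log2 difference of -0.03 with a 95% interval of -0.24 to 0.17. Map2k6 was at 33.5, 37.99 and 36.7 CPM in XY controls and at 36.4, 36.6 and 37.2 CPM in XY KO (0.03, interval -0.16 to 0.21). Mapk14, which encodes p38 alpha, was at 122, 129 and 112 CPM in XY controls and at 112, 114 and 106 CPM in XY KO (-0.13, interval -0.31 to 0.05). For each of the 3 kinases the interval left no room for a fall as large as that of Gadd45g at E11.5. In XX gonads the same kinases differed between KO and control by 0.15 for Map3k4, -0.13 for Map2k6 and 0.04 for Mapk14, none of them called.

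Nr5a1, which encodes the nuclear receptor that drives steroidogenic and Sertoli cell genes, had the lowest FDR of the 9 at this stage. Its levels were 106, 131 and 137 CPM in XY controls and 64.5, 44.0 and 52.5 CPM in XY KO, so the groups lay far apart. The level fell by 1.21 on the log2 scale (SE 0.15, 95% interval -1.53 to -0.89, FDR = 0.00028), from a mean of 125 ± 16.8 to 53.7 ± 10.3 CPM (SD, n = 3). In XX gonads it was at 101, 93.6 and 114 CPM in controls and at 71.0, 95.4 and 95.01 CPM in KO, which overlap, and the difference of -0.24 (SE 0.15, FDR = 0.499) was not called. The effect in XY minus that in XX gonads was -0.97 (SE 0.21), which missed the threshold in edgeR (FDR = 0.11, unadjusted p = 0.000345, where 0.0352% of all genes were called) and passed it in DESeq2 (FDR = 0.0067).

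Gata4 encodes the zinc finger factor that is needed for the first thickening of the genital ridge. It was at 145, 189 and 179.9 CPM in XY controls and at 123, 88.4 and 97.5 CPM in XY KO. The 2 groups did not overlap, and the level fell by 0.73 (SE 0.13, 95% interval -1.02 to -0.45, FDR = 0.00332). In XX gonads it was at 171, 139.8 and 171 CPM in controls and at 139, 157 and 129.8 CPM in KO, a difference of -0.18 (SE 0.13, FDR = 0.615) with overlapping libraries. The interaction for Gata4 was -0.56 (SE 0.19, FDR = 0.264). Without replicate 2 of the XY controls, the library that stood apart, the 3 XY calls held, at -1.69 for Gadd45g (FDR = 0.000456), -1.17 for Nr5a1 (FDR = 0.00111) and -0.66 for Gata4 (FDR = 0.00711).

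The cofactor and the other factors of this stage stayed near their control levels in XY gonads. Zfpm2, whose protein binds GATA4, was at 50.4, 68.2 and 58.5 CPM in XY controls and at 64.5, 49.7 and 54.2 CPM in XY KO, a difference of -0.07 (interval -0.34 to 0.19). Wt1 was at 544, 533 and 509.9 CPM in XY controls and at 529.9, 460.3 and 491 CPM in XY KO (-0.10, interval -0.31 to 0.11). Six4 was at 16.7, 20.4 and 19.2 CPM in XY controls and at 18.6, 16.8 and 17.0 CPM in XY KO (-0.10, interval -0.44 to 0.23). Of these 3, the XX libraries of KO and control overlapped as well, with differences of -0.00 for Zfpm2, -0.08 for Wt1 and -0.32 for Six4, none called.

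Ratios within a library do not depend on the scaling between libraries. In XY gonads at E11.5 the log2 ratio of Nr5a1 to Gata4 was -0.46 ± 0.07 in controls and -0.94 ± 0.06 in KO (SD, n = 3), a difference of -0.48. The groups did not overlap, and the exact two-sided permutation p was 0.1, the smallest that 3 against 3 libraries can give. The ratio of Gadd45g to Gata4 differed by -0.75 in XY KO with overlapping libraries (exact permutation p = 0.2) and by -0.72 in XX KO without overlap (exact permutation p = 0.1), while that of Wt1 to Gata4 was higher in XY KO by 0.64 without overlap (exact permutation p = 0.1). The ratios of Map3k4 (0.71), Map2k6 (0.77), Mapk14 (0.61), Zfpm2 (0.67) and Six4 (0.64) to Gata4 were also higher in XY KO without overlap. All of these ratios share Gata4, itself called lower in XY KO, as the denominator. Against Wt1, the XY ratios of Map3k4 (0.07), Map2k6 (0.13), Mapk14 (-0.03), Zfpm2 (0.03) and Six4 (0.00) overlapped between KO and control. That of Gadd45g to Wt1 differed by -1.39 in XY KO without overlap (exact permutation p = 0.1). The ratio of Nr5a1 to Gata4 differed by -0.07 between XX KO and XX controls, where the libraries overlapped (exact permutation p = 0.7).

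**Figure D2:**
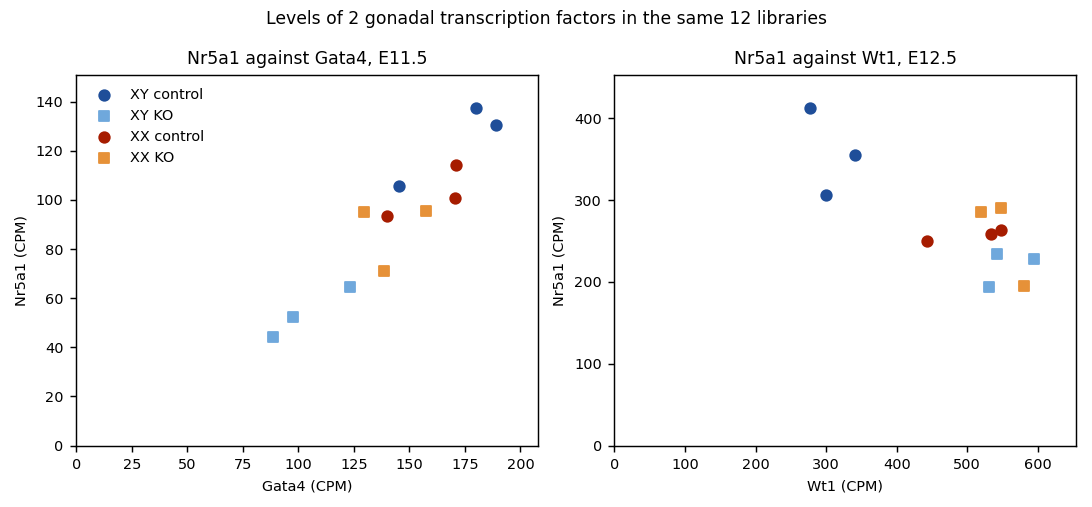
Nr5a1 against Gata4 at E11.5 (left) and Nr5a1 against Wt1 at E12.5 (right), in CPM, 1 point per library, 12 libraries in each panel. At E11.5 the 3 XY KO libraries are lowest on both axes, and at E12.5 the 3 XY controls have the lowest Wt1 and the highest Nr5a1.

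Over the 12 libraries at E11.5, the genes whose log2 CPM followed Gata4 most closely were Rreb1, Nr5a1 and Hs6st1, with Pearson's r between 0.942 and 0.944. For Nr5a1 they were Gata4, Scara5 and Pcsk6, with r between 0.943 and 0.944. Gata4 and Nr5a1 thus stood among each other's 3 nearest genes of the 14217 tested. For Gadd45g the nearest were Galt, Clec2l and Klc4, with r between 0.952 and 0.955. These values describe points that share genotype groups and libraries, and nothing on shared control follows from them.

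Sry itself and Sox9, its direct target, give the context of these levels. In XY controls at E11.5 Sry had 82, 125 and 99 counts (3.77, 4.65 and 4.70 CPM), and in XY KO it had 32, 10 and 31 counts (1.19, 0.513 and 1.59 CPM). Sry fell by 1.99 on the log2 scale (SE 0.37, FDR = 0.0046), and Sox9 fell by 1.25 (SE 0.18, FDR = 0.000761). Of 9 testis genes in the list of Sry and genes downstream of it, 8 were called lower in XY KO at this stage, and 0 were called higher. Over all genes, 6.81% were called lower. Among the XY libraries, XY KO replicate 2 had the lowest Sry, and it also had the lowest Nr5a1 and Gata4 of the 12 libraries. XY KO replicate 3 had the lowest Gadd45g of the 12 but the highest Sry of the XY KO libraries. It also had less Nr5a1 and Gata4 than XY KO replicate 1, which had less Sry.

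The rest of the p38 cascade was read from a list of 30 other genes, of which 29 were in the tables under these symbols and were tested. In XY KO at E11.5, 3 were called lower and 1 higher, with a median log2 fold change of -0.10 beside -0.03 for all genes tested, of which 12.7% were called, so the share of the list lay near the background. Mapk13, which encodes p38 delta, fell by 0.82 (SE 0.16, FDR = 0.00389), and Mapkapk3, a kinase activated by p38, fell by 0.89 (SE 0.22, FDR = 0.0158). Taok3, an upstream kinase, fell by 0.58 (SE 0.17, FDR = 0.0372), and the transcription factor gene Atf2 rose by 0.28 (SE 0.09, FDR = 0.048). The paralogs Gadd45a (-0.21, SE 0.16) and Gadd45b (-0.19, SE 0.17) were not called. In XX KO at E11.5 edgeR called 0 of the 29, 3 had an unadjusted p under 0.05, and DESeq2 called 2.

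Close relatives of the transcription factors were read from a second list. Of 10 tested genes in the families of Gata4, Zfpm2, Six4 and Nr5a1, only Six5 was called in XY KO at E11.5, where it fell by 0.35 (SE 0.10, FDR = 0.0376). Gata6 (0.26, SE 0.10, FDR = 0.118), Zfpm1 (-0.23, SE 0.15, FDR = 0.323) and Nr5a2 (-0.18, SE 0.32, FDR = 0.742) were not called. Gata2 (-0.08), Gata3 (-0.03) and Six2 (1.92, SE 1.23, FDR = 0.34) were not called either, nor were Gata1 (-0.47, SE 0.26, FDR = 0.237) and Gata5 (0.11, SE 0.20, FDR = 0.765). Among 12 other genes that gonad formation or Sry is known to need, Nr0b1 fell by 0.56 (SE 0.16, FDR = 0.029) and Tcf21 rose by 0.38 (SE 0.12, FDR = 0.0447) in XY KO, and the other 10 were not called, beside 12.7% of all genes called.

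NR5A1 has well-known target genes, and 8 of 11 on the list passed the filter at E11.5. In XY KO 4 of the 8 were called lower and 0 higher, beside 6.81% of all genes called lower. Cyp11a1, the first enzyme of steroid synthesis, fell by 2.48 (SE 0.25, FDR = 3.6e-05), Inha fell by 0.84 (SE 0.13, FDR = 0.000873) and Amh fell by 4.97 (SE 0.82, FDR = 0.00528), with Nr0b1 as the last. In XX KO, where Nr5a1 was not called, Cyp11a1 alone was called and fell by 2.63 (SE 0.24, FDR = 8.65e-05). There 1.46% of all genes were called lower. Some genes stand on more than 1 list, since Nr0b1 is also a gonadal somatic marker, Amh a Sertoli cell marker and Cyp11a1 a fetal Leydig cell marker.

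In bulk tissue, fewer cells of a type and less RNA per cell cannot be told apart, so marker genes are given beside these falls. The summed CPM of 5 markers of gonadal somatic cells (Lhx9, Emx2, Nr0b1, Amhr2 and Lgr5) was 416 to 426 in XY controls and 386 to 436 in XY KO at E11.5. Lgr5 fell by 1.24 (SE 0.18, FDR = 0.000791) and Nr0b1 by 0.56, and the other 3 of the 5 were not called. The median log2 fold change of the 5 was -0.40, since the sum is led by the abundant genes. The 10 mesonephric markers summed to 240.4 to 415 CPM in XY controls and 271 to 282 CPM in XY KO, and 1 of them, Pax8, was called lower. Sertoli cell markers summed to 84.8 to 228 CPM in XY controls and 29.8 to 41.4 CPM in XY KO, and macrophage markers to 75.5 to 102 and 43.9 to 70.1 CPM. In XY KO 2 of 5 macrophage markers were called lower, and of 6 pre-granulosa markers 2 were called higher and 1 lower. Germ cell (median log2 fold change -0.50), erythroid (-0.44), endothelial (0.13) and proliferation markers (0.04) had 0 called in XY KO. Fetal Leydig cell markers, 3 of 5 of which passed the filter, summed to 25.5 to 32.2 CPM in XY controls and 13.4 to 18.1 CPM in XY KO, and Cyp11a1 was the one called. In XX gonads, beside the call of Gadd45g, the same markers summed to 22.9 to 31.2 CPM in controls and 13.5 to 18.3 CPM in KO. Macrophage markers summed to 85.4 to 92.5 CPM in XX controls and 44.3 to 61.98 CPM in XX KO, with 2 of 5 called lower, and pre-granulosa markers to 384 to 391 and 274 to 327 CPM, with 2 of 6 called lower. Mesonephric markers summed to 391 to 446 CPM in XX controls and 316 to 360 CPM in XX KO. Their median log2 fold change was -0.44, with 0 of 10 called. It was -0.96 for germ cell markers, with 0 of 7 called and overlapping sums. For gonadal somatic markers it was -0.36, with 1 of 5 called lower. Erythroid (-0.07), endothelial (0.09), Sertoli cell (-0.11) and proliferation markers (0.09) had 0 called. Over all genes, 5.88% were called higher and 6.81% lower in XY KO, and 1.81% higher and 1.46% lower in XX KO. The part of any of these cell types in the levels of the 9 genes was not tested.

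Before the deletion is considered, control gonads of the 2 sexes can be compared. At E11.5 none of the 9 genes was called between XX and XY controls with edgeR, where 0.886% of all genes were, and 0 of the 9 had an unadjusted p under 0.05 or a call in DESeq2. When XX KO was set against XY KO at E11.5, a test that called 0.0844% of all genes, edgeR called 0 of the 9, and 3 had an unadjusted p under 0.05. Nr5a1 came nearest, being higher in XX KO by 0.70 (SE 0.15, FDR = 0.148), and it passed in DESeq2 (FDR = 0.00742) and without replicate 2 of the XY controls (FDR = 0.0495). Gata4 (0.46, SE 0.13) and Map3k4 (0.22, SE 0.10) also had every XX KO library above every XY KO library, without a call. For both the exact permutation p was 0.1, the smallest possible, and the share of all genes that separate in this way is not given here.

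The same comparisons were made at E12.5, a day later. Between XX and XY controls 2 of the 9 genes were called, Wt1 higher and Nr5a1 lower in XX, where 23.8% of all genes were called. When XY KO was set against XY control, 2 of the 9 were called, Wt1 higher and Nr5a1 lower, where 20.6% of all genes were called. These 2 comparisons share the XY controls. In XX KO against XX control gonads Six4 was called lower, where 5.26% of all genes were called and 1.85% were called lower. That background of 755 genes fell to 35 and 83 without replicates 1 and 2 of the XX controls, to 117 without replicate 3 of XX KO and to 491 without replicate 2 of XY KO, and rose to 1670 without replicate 2 of XX KO. When XX KO was set against XY KO, 0 of the 9 were called by edgeR or DESeq2, 1 (Zfpm2) had an unadjusted p under 0.05, and edgeR called 0.153% of all genes.

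**Figure D3:**
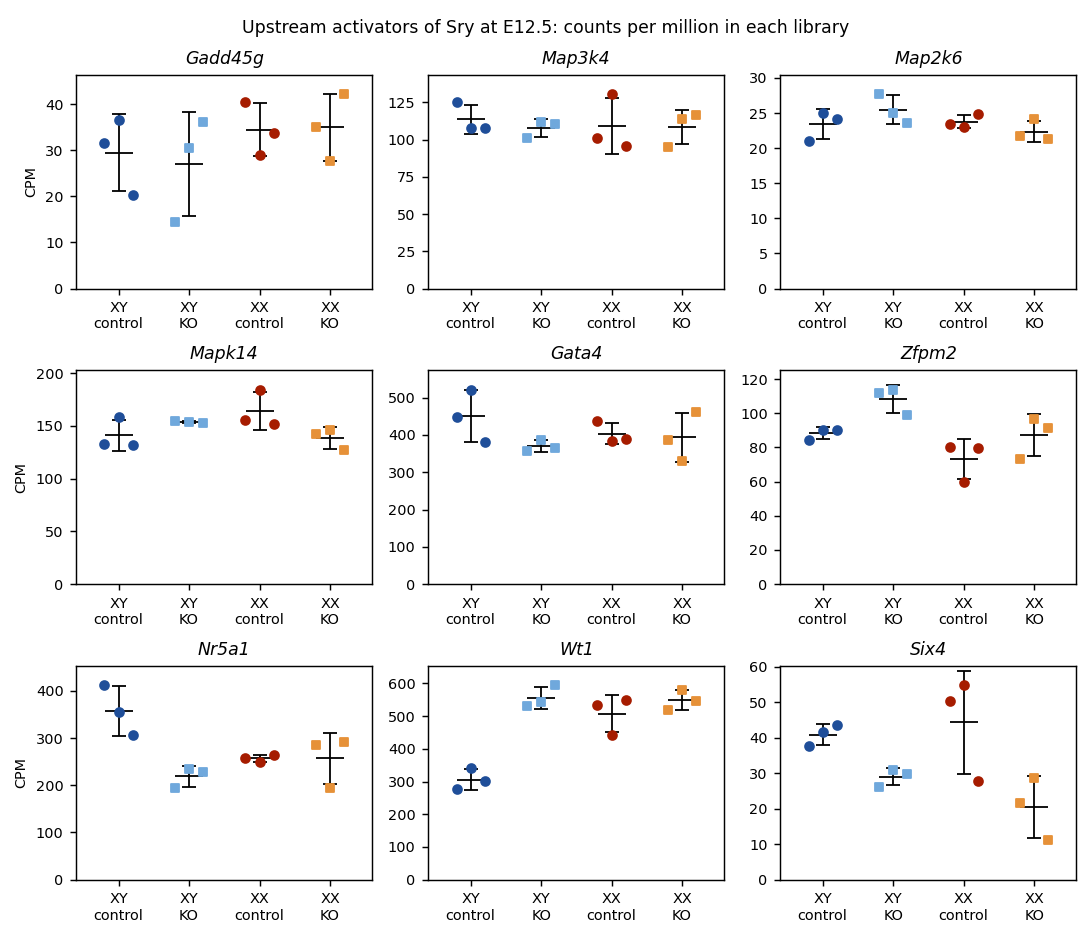
CPM of the 9 genes in each of the 12 libraries at E12.5, by genotype; points are libraries, and bars give the mean and SD of 3. XY controls are the lowest group for Wt1 and the highest for Nr5a1, and XX KO libraries are low for Six4.

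Wt1, which supporting cell precursors and later Sertoli cells express, was at 277, 341 and 300.5 CPM in XY controls. XX controls were at 533, 443 and 548 CPM, XY KO at 531, 542 and 595 CPM, and XX KO at 520.0, 581 and 548 CPM. The 3 XY controls were below the other 9 libraries. Wt1 was higher in XY KO than in XY controls by 0.86 on the log2 scale (SE 0.12, 95% interval 0.60 to 1.12, FDR = 0.000145), and higher in XX than in XY controls by 0.73 (SE 0.12, FDR = 0.000455). XX KO differed from XX controls by 0.11 (SE 0.12, FDR = 0.592), and from XY KO by -0.02 (interval -0.28 to 0.24). The effect in XY minus that in XX gonads was 0.75 (SE 0.17, FDR = 0.00985), in a test that called 12.9% of all genes.

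Nr5a1 moved in the opposite direction at this stage. It was at 412, 355 and 306 CPM in XY controls, 193 to 235 CPM in the 3 XY KO libraries, 249.9 to 264 CPM in XX controls, and 285, 195 and 291 CPM in XX KO. The XY controls were above the other 9 libraries. The level fell by 0.71 in XY KO (SE 0.16, 95% interval -1.05 to -0.37, FDR = 0.0046), and the log2 difference of XX from XY controls was -0.48 (SE 0.16, FDR = 0.0393). XX KO did not differ detectably from XX controls (-0.00, interval -0.34 to 0.33). The interaction was -0.71 (SE 0.22, FDR = 0.0491). The call between controls was lost without TMM scaling (FDR = 0.0812) and when 6 of the 12 libraries were left out in turn, namely each of the 3 XX controls, replicates 1 and 2 of the XY controls and replicate 2 of XY KO (FDR between 0.053 and 0.149). The interaction was lost without TMM scaling (FDR = 0.0622) and when 10 of the 12 libraries were left out in turn. The fall in XY KO was called under every alternative run.

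Six4, the homeobox gene of gonadal precursors, was at 50.5, 54.9 and 27.9 CPM in XX controls and at 21.6, 28.7 and 11.2 CPM in XX KO. Replicate 3 of the XX controls was low and lay within the range of the KO libraries. Six4 fell by 1.11 in XX KO (SE 0.28, 95% interval -1.72 to -0.50, FDR = 0.0382), and this call was lost when only the 6 XX libraries were fitted (FDR = 0.114), without the filter on low counts (FDR = 0.0619) and when 8 of the 12 libraries were left out in turn. In XY gonads it was at 37.6, 41.5 and 43.6 CPM in controls and at 26.2, 31.0 and 29.9 CPM in KO, which do not overlap (exact permutation p = 0.1). That difference of -0.49 (SE 0.28) was not called in the fit of all 12 libraries (FDR = 0.261) and was called when only the 6 XY libraries were fitted (FDR = 0.0151). The difference between the sexes was 0.62 (interval -0.23 to 1.47, FDR = 0.349).

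None of the 4 genes of the p38 branch was called at E12.5 by edgeR or DESeq2 between any of the groups compared, and none had an unadjusted p under 0.05 there; in the interaction Mapk14 had one, without a call. Gadd45g was at 31.5, 36.6 and 20.3 CPM in XY controls and at 14.5, 30.5 and 36.0 CPM in XY KO, a difference of -0.13 (interval -0.74 to 0.49), and its libraries spread widely in both groups. Its XX controls were at 40.5, 29.0 and 33.8 CPM, and its XX KO at 35.0, 27.8 and 42.2 CPM. Map3k4 was at 108 to 125 CPM in XY controls and at 101 to 112 CPM in XY KO, and Map2k6 at 21.0 to 25.1 and 23.6 to 27.7 CPM. Mapk14 was at 132 to 158 CPM in XY controls and at 153 to 155 CPM in XY KO, and differed by -0.24 (interval -0.49 to 0.01) between XX KO and XX controls, without a call.

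Gata4 and Zfpm2 were not called at E12.5 either. Gata4 was at 449, 522 and 381 CPM in XY controls and at 357, 387 and 366 CPM in XY KO, a difference of -0.28 (SE 0.14, FDR = 0.193) with overlapping libraries. Zfpm2 was at 84.5, 90.2 and 90.3 CPM in XY controls and at 112, 114 and 98.8 CPM in XY KO. Every KO library was higher (exact permutation p = 0.1), with a difference of 0.29 (SE 0.14, FDR = 0.164). Within libraries, the log2 ratio of Wt1 to Gata4 was higher in XY KO by 1.14, that of Zfpm2 to Gata4 by 0.56, and that of Nr5a1 to Gata4 was lower (-0.43). Each of these 3 ratios separated the groups (exact permutation p = 0.1, the smallest possible). The ratios of Map2k6 (0.39) and Mapk14 (0.40) to Gata4 were also higher in XY KO without overlap, while those of Gadd45g, Map3k4 and Six4 overlapped. All of these ratios share Gata4 as the denominator, and their direction depended on it. Against Wt1, itself called higher in XY KO, every other gene had a lower ratio in XY KO without overlap. Among these were Zfpm2 (-0.57), Map2k6 (-0.74) and Mapk14 (-0.74).

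**Figure D4:**
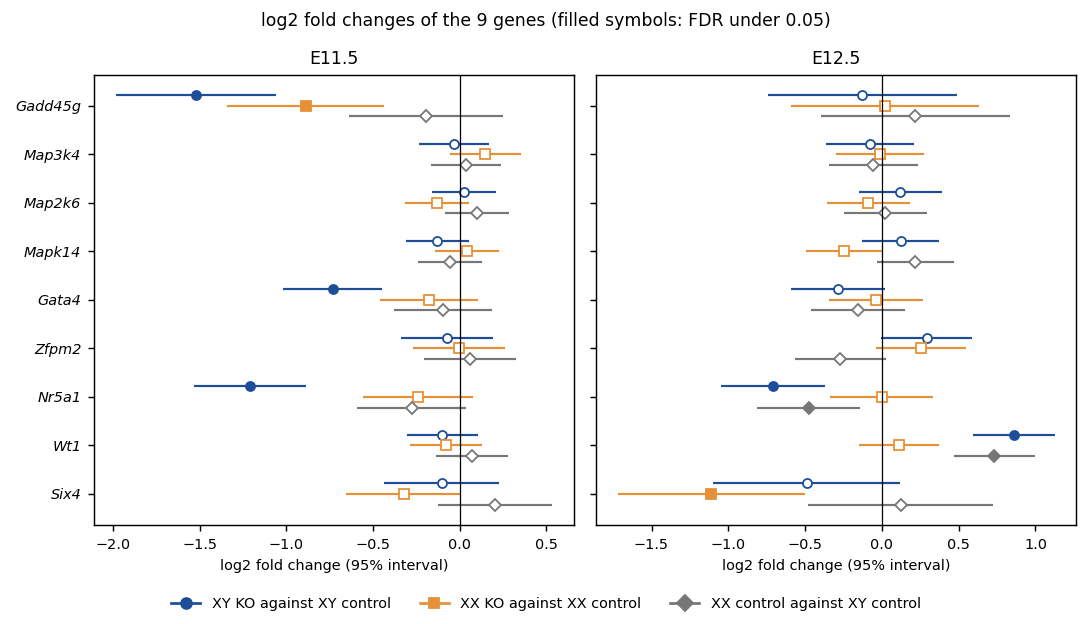
log2 fold changes of the 9 genes at E11.5 (left) and E12.5 (right) in XY KO against XY control, XX KO against XX control and XX against XY control gonads; lines are 95% intervals, and filled symbols mark FDR under 0.05. The filled symbols to the left at E11.5 are Gadd45g, Gata4 and Nr5a1, and at E12.5 Wt1 lies to the right at 0.86 in XY KO.

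At E12.5, 3 of 9 tested genes in the families of Gata4, Zfpm2, Six4 and Nr5a1 were called in XY KO, all higher: Gata6 by 1.12 (SE 0.14, FDR = 3.65e-05), Gata2 by 2.34 (SE 0.36, FDR = 0.000284) and Gata3 by 1.46 (SE 0.29, FDR = 0.0021). Over all genes, 20.6% were called in this comparison in either direction and 10.3% were called higher. Gata3 is also one of the mesonephric markers. Between XX and XY controls, a comparison that shares the XY control libraries, Gata6 was higher by 1.01 (SE 0.14), Gata2 by 2.49 (SE 0.36) and Gata3 by 1.66 (SE 0.29). Gata1 (-0.25, SE 0.40), Gata5 (0.60, SE 0.35), Zfpm1 (0.06, SE 0.22), Six5 (0.35, SE 0.16) and Nr5a2 (-0.33, SE 0.23) were not called in XY KO. Nr5a2 fell by 0.90 in XX KO (SE 0.23, FDR = 0.0362), the only call of the 9 there, beside 5.26% of all genes called and 1.85% called lower. Gata6 was also among the 3 genes most like Wt1 over the 12 libraries at E12.5, with Ccdc125 and Anks1b (r between 0.971 and 0.988). The genes nearest to Nr5a1 were Gpx1, Myl12a and Rpn2 (r between 0.949 and 0.966).

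Of the 29 other genes of the p38 cascade at E12.5, 4 were called lower and 1 higher in XY KO, with a median of -0.10 beside -0.01 for all genes tested, of which 20.6% were called, so the share of the list was no higher than the background. Mapk13 fell by 2.05 (SE 0.23, FDR = 1.46e-05), from a mean of 88.1 to 21.3 CPM, and Taok3 by 1.07 (SE 0.13, FDR = 3.51e-05). Mapkapk2 fell by 0.46 (SE 0.12, FDR = 0.0112), and Mapk12, which encodes p38 gamma, rose by 1.08 (SE 0.18, FDR = 0.000514). The fourth gene called lower was Dusp8, a phosphatase of stress kinases. In XX KO only Rps6ka4, a kinase downstream of p38, was called, and rose by 0.79 (SE 0.18, FDR = 0.0276). Gadd45a (-0.33, SE 0.20) and Gadd45b (0.07, SE 0.23) were not called in XY KO.

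Of the 12 other genes known to be needed for gonad formation or Sry, 3 rose and 1 fell in XY KO at E12.5, where 20.6% of all genes were called. Emx2 rose by 1.55 (SE 0.15, FDR = 3.47e-06), Kdm3a, a histone demethylase gene that Sry needs, by 1.13 (SE 0.12, FDR = 7.79e-06) and Lhx9 by 0.61 (SE 0.13, FDR = 0.00296), and Tcf21 fell by 0.66 (SE 0.19, FDR = 0.025). All of the 11 NR5A1 target genes passed the filter at this stage, and 10 were called lower in XY KO, with 0 higher. Amh fell by 8.63 (SE 0.40, FDR = 4.98e-09), Cyp17a1 fell by 8.53 (SE 0.43, FDR = 1.03e-08), Cyp11a1 fell by 7.82 (SE 0.46, FDR = 4.41e-08) and Star fell by 3.40 (SE 0.22, FDR = 9.47e-08). Without the deletion, 10 of the 11 were also called lower in XX than in XY controls, and 1 was called higher. That comparison shares the XY control libraries and called 23.8% of all genes. Amh is also one of the Sertoli cell markers summed below, and Cyp17a1, Cyp11a1 and Star are among the fetal Leydig cell markers.

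Sry at E12.5 had 0, 5 and 4 counts in XY controls and 38, 47 and 94 counts in XY KO, which is 0 to 0.348 and 2.22 to 3.17 CPM. Sry was thus higher in XY KO by 3.99 on the log2 scale (SE 0.64, FDR = 0.00126), and Sox9 fell by 2.98 (SE 0.30, FDR = 5.72e-06). The remaining 8 of the 9 genes in the list of Sry and downstream testis genes were called lower, beside 10.3% of all genes.

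Cell markers were summed in the same way at E12.5. The gonadal somatic markers summed to 446 to 508 CPM in XY controls and 779 to 861 CPM in XY KO, and Emx2 and Lhx9 were the 2 of 5 called, both higher. Sertoli cell markers summed to 1518 to 2121 CPM in XY controls and 38.9 to 54.5 CPM in XY KO, fetal Leydig cell markers to 822 to 1767 and 31.3 to 40.7 CPM, and pre-granulosa markers to 78.3 to 105 and 546 to 586 CPM. Germ cell markers summed to 912 to 1251 CPM in XY controls and 695 to 844 CPM in XY KO, with 3 of 7 called lower and a median log2 fold change of -0.33. In XX gonads, beside the call of Six4, they summed to 894 to 1609 CPM in controls and 379 to 839 CPM in KO, with 3 of 7 called lower and a median log2 fold change of -0.83. Proliferation markers had 4 of 6 called lower in XY KO and 1 of 6 in XX KO. Endothelial markers had 2 of 6 called higher in XY KO and 0 in XX KO, and erythroid and macrophage markers had 0 called in either. Mesonephric markers, some of which gonadal cells also express, summed to 95.7 to 107 CPM in XY controls, 97.4 to 178 in XY KO, 117 to 149 in XX controls and 144 to 199 CPM in XX KO. Of the 10 mesonephric markers 7 were called higher and 1 lower in XY KO, and 3 higher and 0 lower in XX KO. Cdh16, of the tubules, was at a mean of 0.188 CPM in XY controls, 26.0 in XY KO, 0.811 in XX controls and 50.3 CPM in XX KO. Over all genes, 10.3% were called higher and 10.3% lower in XY KO, and 3.42% higher and 1.85% lower in XX KO. The part of these cells in the levels of Wt1, Nr5a1 and Six4 was not tested.

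A test over all 24 libraries asked whether the effect of the deletion differed between the stages, which also differ in tissue and kit. For XY gonads 2 of the 9 genes were called, where 15.0% of genes were. The effect on Gadd45g was higher at E12.5 than at E11.5 by 1.40 on the log2 scale (SE 0.39, FDR = 0.018), and that on Wt1 by 0.97 (SE 0.15, FDR = 7.3e-05). For Nr5a1 (0.51, SE 0.23, FDR = 0.149) and Gata4 (0.45, SE 0.21, FDR = 0.152) the effects were not shown to differ. For XX gonads 0 of the 9 were called by edgeR, where 0.660% of genes were, although 2 had an unadjusted p under 0.05, namely Gadd45g (0.92, SE 0.39, FDR = 0.382) and Six4 (-0.78, SE 0.35, FDR = 0.404). Without replicate 1 of the XY controls at E11.5 the difference for Gadd45g was no longer called (FDR = 0.0707), and the same held without replicate 3 of the XY controls (FDR = 0.0536) or of the XY KO (FDR = 0.07) at E12.5.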

How the data were processed

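Bulk RNA-seq of 24 libraries was used. Per the labels and the study's methods, the authors mapped read pairs to mm10 and counted them per gene with Subread and featureCounts; the deposited values are raw counts, 1 table per stage. Annotation, strand setting and the handling of multimapping reads are not given in the sources used here. Counts of 12 columns from Foxl2 3′ UTR mutants were not used.

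Genes reaching 1 CPM in 2 or more of a stage's 12 libraries were tested (14217 at E11.5, 14348 at E12.5). For each stage 1 edgeR 4.0.16 model (R 4.3.3) with a mean per genotype, TMM scaling and the robust legacy quasi-likelihood fit was used, and FDR under 0.05 was called. Stage differences used 13784 genes passing at both. Fold changes are log2 and SE is the fold change divided by the root of F. CPM carry counting error and replicate spread together. Ratios were tested by exact permutation. The fit was tested on simulated data. Libraries of 1 group differed by 7.58 to 85.4 times the variance of sampling alone, so none was counted as a duplicate. Alternatives were scaling by library size or RLE, no filter, DESeq2 1.42.0, the newer quasi-likelihood form, only the libraries compared, a replicate block and leaving out each library.

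The 9 genes and the gene lists were chosen with earlier results of these data known. Named genes are the 9, Sry, Sox9, Xist and Ddx3y, up to 4 called genes with the lowest FDR of a list, family relatives, and the 3 genes most like each gene called in XY KO by Pearson's r of log2 CPM with a prior count of 2. Mir17hg was added for the deletion, which its counts per gene cannot check, and Cdh16, Dusp8 and Nr5a1os after their values or positions were seen. The values of 1 tested family relative are not reported here.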

Additional observations from a re-analysis of the deposited data

Results flagged for a closer look

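Of the 9 genes, 4 differences between effects passed a test of the difference itself. At E12.5 the effect of the deletion on Wt1 was higher in XY than in XX gonads by 0.75 on the log2 scale (0.86 against 0.11), and that on Nr5a1 differed by -0.71 (-0.71 against -0.00). The effect in XY gonads differed between E12.5 and E11.5 by 1.40 for Gadd45g (-0.13 against -1.52) and by 0.97 for Wt1 (0.86 against -0.10). The stages differ in tissue and library kit, which cannot be told apart from time. No outlier test of single values was run within groups of 3 libraries.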

How the results depend on the processing

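None of the 13 called values of the 9 genes changed sign under any alternative run: of 251 values, 208 kept their call and 43 lost it. The calls of Nr5a1, Gadd45g and Gata4 in XY KO at E11.5, of Nr5a1 and Wt1 in XY KO at E12.5, and of Wt1 between controls, in the interaction and between stages held throughout. The number of genes called of the 9 fell from 2 to 1 with library size alone in the E12.5 control comparison and interaction, from 1 to 0 without the filter in XX KO at E11.5 and at E12.5 and from 1 to 0 in XX KO at E12.5 with only the 6 libraries compared, and rose from 0 to 1 with DESeq2 in the E11.5 interaction and in XX KO against XY KO at E11.5. Leaving out 1 library gave 0 to 1 for XX KO at both stages, 0 to 1 for XX KO against XY KO and the interaction at E11.5, and 1 to 2 for controls, the interaction at E12.5 and the XY stage difference. Gadd45g in XX KO at E11.5 lost its call without any 1 of the 6 XX libraries or replicate 1 or 2 of XY KO (FDR up to 0.146), as did Six4 in XX KO at E12.5 without replicate 1 or 2 of the XX controls (0.124 and 0.171) or replicate 1 or 3 of XX KO (0.0691 and 0.128), any 1 of the 3 XY controls or replicate 2 of XY KO (0.0501 to 0.0574). Against Wt1 in place of Gata4, the ratios in XY KO at E11.5 differed by -1.12 for Nr5a1 and -1.39 for Gadd45g. With that denominator the ratios of Map3k4, Map2k6, Mapk14, Zfpm2 and Six4 overlapped between the groups. The cause of these changes was not tested.

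Same-numbered libraries did not deviate together (correlations of -0.38 to 0.349). Whether they shared a litter or a preparation was not tested and is not given by the labels. With replicate number as a block, the count was 3 in XY KO at E11.5 and 2 at E12.5, 1 for E12.5 controls, for the E12.5 interaction and for XX KO at E12.5, and 0 for XX KO at E11.5; Gadd45g in XX KO (FDR = 0.0566) and Nr5a1 between E12.5 controls (0.0581) and in the interaction (0.0768) were no longer called.

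Over all genes, DESeq2 called 439 against 126 between controls, 778 against 465 in XX KO, 264 against 12 between KO gonads and 164 against 5 in the interaction at E11.5, and 1456 against 755 in XX KO and 66 against 22 between KO gonads at E12.5. With only the 6 libraries compared, 779 against 1804 were called in XY KO at E11.5, and at E12.5 296 in XX KO and 11 between KO gonads. Library size alone gave 176 higher and 245 lower calls in XX KO at E11.5, against 258 and 207. The depth was enough for all 9 genes; the 3 libraries per group limit the precision.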
